A study of Mus musculus with 2 samples.

Results

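Colony-stimulating factors are secreted proteins that keep myeloid cells alive and drive their growth, and each acts through a receptor on the cell surface. M-CSF, the product of *Csf1*, binds the receptor tyrosine kinase encoded by *Csf1r*, on which macrophages depend. GM-CSF, the product of *Csf2*, binds the chain encoded by *Csf2ra*, which signals with the common beta chain encoded by *Csf2rb*. Mice carry a close copy of that chain, *Csf2rb2*, which serves IL-3. *Csf3r* encodes the receptor of G-CSF and is a gene of granulocytes and monocytes, *Flt3* encodes the receptor kinase on which dendritic cells depend, and *Kit* encodes the stem cell factor receptor of mast cells and progenitors. These 9 genes were taken by symbol from the 27809 genes of the expression matrix, and all 9 were found. *Csf3* and *Il3*, the ligands of *Csf3r* and of the IL-3 receptor, were looked for but were not among the genes of the matrix.

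CD45+ cells, that is leukocytes, were isolated from mouse hearts 1 week after sham surgery or transverse aortic constriction (TAC). In TAC a suture narrows the aorta and the left ventricle works against a higher pressure. Per the study's methods the mice were male, aged 8 weeks and of C57BL/6 background. C57BL/6N is named there for the purchased mice, and the substrain of the CD3e-/- mice is not given. The 5 groups were WT sham, CD3e-/- sham, WT TAC, CD3e-/- TAC and WT TAC under an antibody to CD8, and lists of 5 values follow this order. CD3e-/- mice lack T cells from birth in all tissues, and the antibody was given on day 0 and every 3 days. A hashtag marked the cells of each group, and all were read in a single TAS-Seq library, so each group is 1 sample, no test was possible and no p-value is given. The number of mice behind a hashtag is not given in the sources used here.

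After filtering, 1000, 835, 1615, 919 and 894 cells were kept, with 91899777 to 208758777 reads per group, and no cell barcode was shared between groups. Cells with reads of both *Cd8a* and *Cd8b1* numbered 7, 0, 9, 0 and 5, so the last group is called by its label, the TAC group labelled CD8-depleted. Cells of the T cell gate numbered 48, 3, 39, 0 and 28, of which 32, 0, 34, 0 and 24 had a *Cd3e* read. *Cd3e* itself was at 17.8, 3.73, 10.8, 5.64 and 13.6 CPM (reads per 1000000 reads) over all kept cells, so the groups labelled CD3e-/- also had reads of the targeted gene. In these groups 278 of 343 and 644 of 768 such reads lay in monocytes and macrophages, whose level was 0.766, 5.42, 0.568, 6.11 and 1.41 CPM. The matrix does not show which part of the gene these reads cover, so they do not check the deletion. Cells were put into classes by the CPM of gate genes such as *Lyz2*, *Lyve1*, *Ccr2*, *Ly6c2*, *Ace*, *Xcr1*, *Cd209a*, *Cd79a* and *Cd3g*, and none of the 9 genes was a gate gene. The 5 *Lyz2*-high classes of *Lyve1* macrophages, Ccr2-low Lyve1-low macrophages, Ccr2 cells, Ly6c-high monocytes and Ly6c-low monocytes made up 3408 monocytes and macrophages. The markers listed for *Lyve1* macrophages, both monocyte classes, cDC1, cDC2, pDC, granulocytes, mast cells, T cells, B cells and NK cells summed to more in their own class than in any other. The markers of pDC, granulocytes, mast cells, NK cells and ILC2 include the gate gene of that class, so their sums were partly fixed by the gates. Those listed for Ccr2 macrophages were highest in cDC2, and those of the remaining macrophages in *Lyve1* macrophages (9878 CPM) before their own class of Ccr2-low Lyve1-low macrophages (8598 CPM), so both classes are called only by their gates. The 14 cells of the pDC gate had 2128 CPM over the list of pDC but 4638 CPM over that of the remaining macrophages, with a median above 0 for 1 marker of pDC and 4 of 5 macrophage markers, so this gate is not taken as a cell type. The list of ILC2 had 2509 CPM in the ILC2 gate and 2760 CPM in mast cells, and the ILC2 gate also took cells with macrophage genes, with 2220 CPM over the same macrophage markers. The 429 unassigned cells included granulocytes and other heart cells, so their level belongs to no cell type. The cut of *Ccr2* ran through a continuum, with 1340 cells within a factor of 2 of the cut of 1000 CPM. The levels below are reads of a gene over all reads of a class. Ranges in parentheses are 95% intervals, exact Poisson for levels and Clopper-Pearson for shares of cells, and cover counting error only. Where 0 cells had a read, the limit given is 3 counts over the number of cells. Reads of 1 molecule are not independent, so these intervals are too narrow. Before cells with a read were counted, every cell was thinned at random to 20000 reads, at which 1 read is 50 CPM. At that depth the groups still differed in genes per cell, with medians of 2437.5, 2517, 2764, 3046 and 2806 in monocytes and macrophages. Thinning thus did not make detection equal between groups.

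The beta chain genes *Csf2rb* and *Csf2rb2* lie next to each other on chromosome 15 (78325800 to 78351001 and 78282507 to 78305721, GRCm38.p6) and their reads may be split in error, so their sequences are shown first. Over 2631 coding positions aligned without a gap, 95.2% of the bases were identical (transcripts of the GENCODE vM1 annotation). The stretch of 60 aligned coding bases in which the genes differ most is given with the 13 differing bases in capitals, from coding base 304 to 363 of *Csf2rb* and from 307 to 366 of *Csf2rb2*.
Csf2rb: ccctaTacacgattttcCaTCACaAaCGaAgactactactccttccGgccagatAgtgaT
Csf2rb2: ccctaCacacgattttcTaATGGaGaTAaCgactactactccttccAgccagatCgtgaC
The longest coding run without any difference had 242 bases, from coding base 2083 to 2324 in both genes, and a read inside it fits both genes equally.
Shared run: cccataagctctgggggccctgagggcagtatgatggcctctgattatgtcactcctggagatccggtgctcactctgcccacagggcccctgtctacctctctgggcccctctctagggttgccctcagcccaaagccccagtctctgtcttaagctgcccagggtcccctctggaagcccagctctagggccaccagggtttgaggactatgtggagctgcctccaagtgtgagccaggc
Of all runs of 50 bases, 18.3% of those of the *Csf2rb* transcript and 18.9% of those of the *Csf2rb2* transcript occur in the other. None of the 451 runs in the last 500 bases is shared, where libraries primed on the poly(A) tail have many of their reads. How reads that fit both genes were counted is not given in the sources used here, and values of *Csf2rb2* are uncertain for that reason. The other genes lie on chromosomes 3 (*Csf1*, 107741048 to 107760469), 4 (*Csf3r*, 126023441 to 126044975), 5 (*Kit*, 75574987 to 75656722, and *Flt3*, 147330741 to 147400489), 11 (*Csf2*, 54247270 to 54249899), 18 (*Csf1r*, 61105572 to 61131139) and 19 (*Csf2ra*, 61217191 to 61228461).

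**Figure D1:**
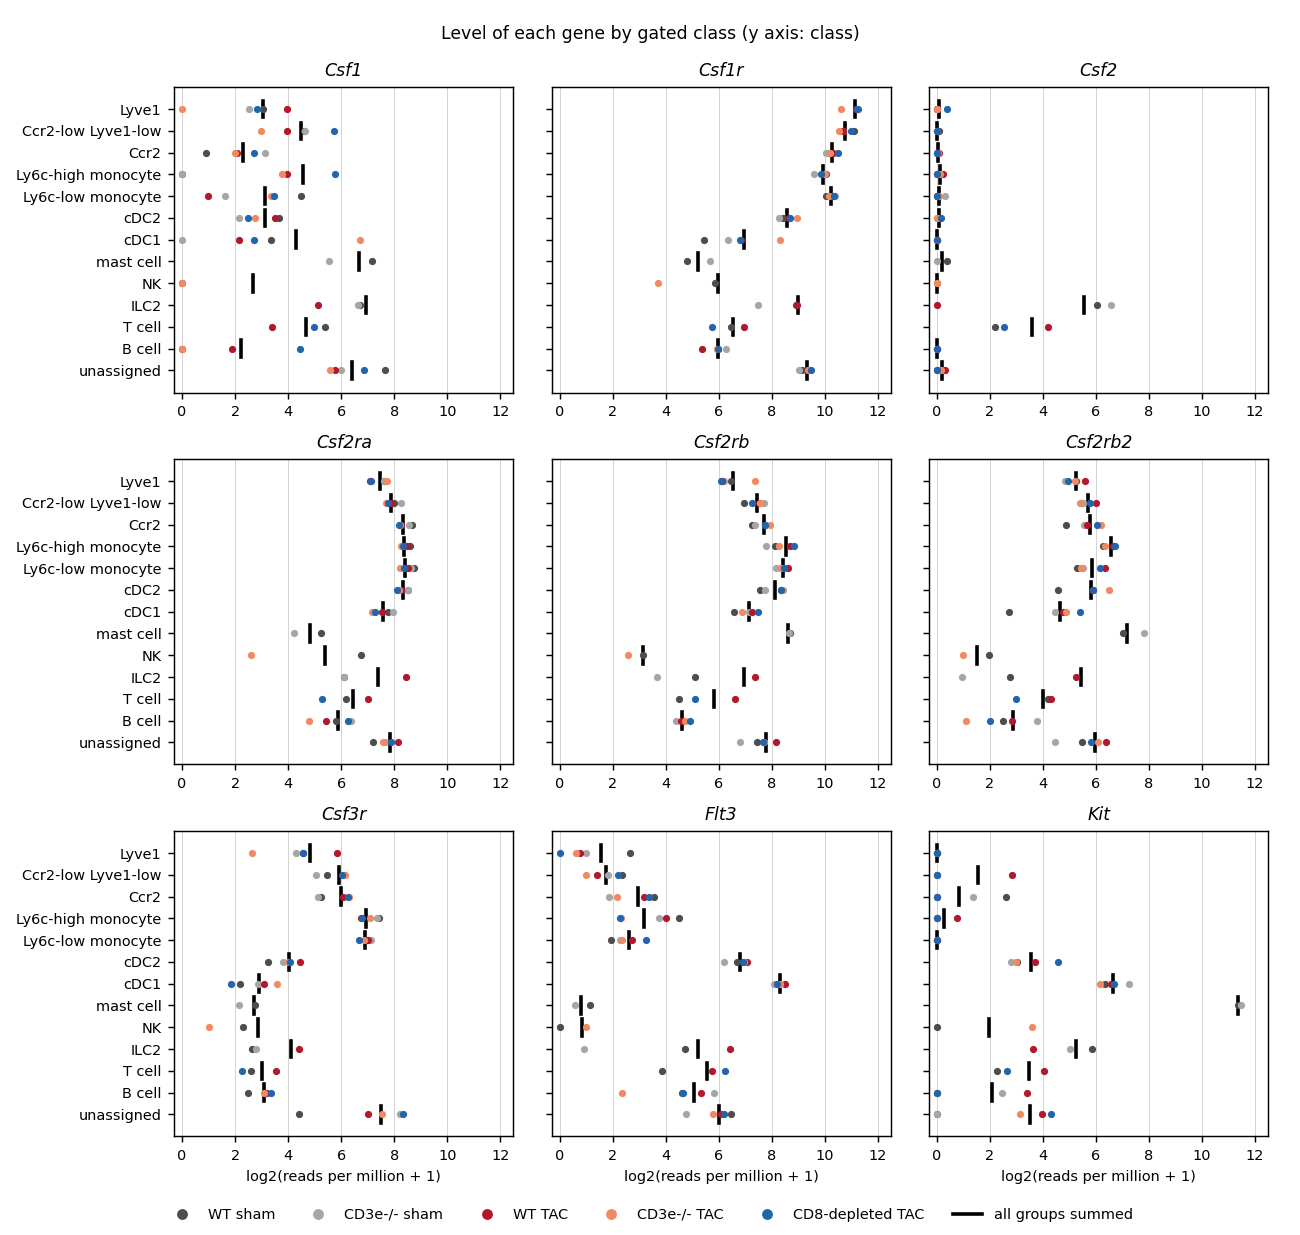
Level of each gene in each gated class, as log2 of CPM plus 1 on the x axis, with the 5 groups as dots where a group had at least 10 cells and the summed reads of all groups as a black tick. *Csf1r* is highest in the *Lyve1* macrophages (2257 CPM), *Kit* and both beta chain genes in mast cells (2654, 392 and 142 CPM), *Flt3* in cDC1 (319 CPM) and *Csf2* in the ILC2 gate (46.1 CPM).

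*Csf1* was read in few cells of many classes. Monocytes and macrophages held 43.0% of its 12788 reads, unassigned cells 29.6%, the ILC2 gate 8.43% and mast cells 5.32%. Over all groups the level was 122 CPM in the ILC2 gate (115 to 129), 102 CPM in mast cells (94.6 to 110) and 84.4 CPM in unassigned cells. Without the cell with the most reads these levels were 99.3, 89.8 and 68.0 CPM. The order differed between groups. In WT sham *Csf1* was at 199.7 CPM in unassigned cells, of which 1 cell gave 62.0% of the reads, at 142 CPM in mast cells and at 105 CPM in the ILC2 gate. In CD3e-/- sham it was at 62.5, 45.1 and 99.2 CPM in the same classes. The ILC2 gate had 34.1 CPM in WT TAC, from 1 of 17 cells, and 413 CPM in CD3e-/- TAC, from 3 of 7 cells. No order of the 3 classes is read from these levels. ILC2 are innate lymphoid cells that make type 2 cytokines, and *Gata3* is their master regulator. Of 64 cells of the ILC2 gate with at least 50 CPM of *Gata3*, 22 had a *Csf1* read (34.4%, 22.9% to 47.3%) and the level was 169 CPM. Of the other 38 cells 3 had one, and 87.8% of the reads came from 1 cell.

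Among unassigned cells, 27 with *S100a8* of at least 5000 CPM, a granulocyte gene, had 624 CPM of *Csf1* (581 to 669) with a read in 15 cells. Another 33 with *Dcn* of at least 500 CPM, a fibroblast gene, had 128 CPM (119 to 137) with a read in 21 cells. Both splits were made after the data were seen. In monocytes and macrophages 3.87% of the cells had a *Csf1* read (3.25% to 4.58%), in B cells 0.441% (0.0534% to 1.58%), where the median depth was 96388 and 46896 reads per cell. The share was 8.89% in Ly6c-high monocytes (6.43% to 11.9%), 3.65% in Ccr2-low Lyve1-low macrophages (2.70% to 4.81%) and 2.49% in Ccr2 cells (1.67% to 3.56%).

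Of the 132 monocytes and macrophages with a *Csf1* read at the thinned depth, 130 also had a *Csf1r* read, as did 99.3% of all monocytes and macrophages. The 132 cells had less *Csf1r* than the other 3276 cells (1025 against 1448 CPM), more *Ly6c2* (1456 against 555 CPM) and less of the complement gene *C1qa*, a gene of resident macrophages (1508 against 2438 CPM). Their median depth was 142194 reads against 95483.5.

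In the monocytes and macrophages *Csf1* was at 12.8, 12.4, 8.61, 6.93 and 31.0 CPM. The TAC group labelled CD8-depleted stood above the other 4, which lay between 6.93 and 12.8 CPM. Without the cell with the most reads in each group the levels were 5.22, 8.81, 6.10, 6.21 and 23.7 CPM, so in WT sham 1 cell gave 59.4% of the reads. The log2 ratio of the TAC group labelled CD8-depleted to WT TAC was 1.40 with 5 CPM added to both, which is 2.64-fold, and it was 1.37 without those cells. It stayed past 1.5-fold under each of the 9 alternatives, between 0.83 and 1.73. Cells with a read were 47 of 613 in that group (7.67%, 5.69% to 10.1%) and 38 of 1103 in WT TAC (3.45%, 2.45% to 4.70%).

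The reads behind the higher *Csf1* of that group lay mostly in 2 classes. Ly6c-high monocytes had 0, 0, 14.4, 12.6 and 53.9 CPM, from 9 of 135 cells in WT TAC, 10 of 141 in CD3e-/- TAC and 21 of 130 in the TAC group labelled CD8-depleted. The sham groups held only 18 and 26 such cells, and 0 of 18 and 0 of 26 allow shares of up to 16.7% and 11.5%. Ccr2-low Lyve1-low macrophages had 23.0, 23.5, 14.4, 6.87 and 52.4 CPM. In this class 1 cell gave 45.7% of the reads of the TAC group labelled CD8-depleted and 53.9% of those of WT TAC, and without these cells the levels were 28.6 and 6.70 CPM. Ccr2 cells had 0.88, 7.68, 3.19, 2.99 and 5.51 CPM, and Ly6c-low monocytes had 0.947 CPM in WT TAC and 10.1 CPM in the TAC group labelled CD8-depleted, from 1 and 4 cells. *Csf1* after TAC against sham was lower by level in both genotypes but was read in a larger share of cells (1.60%, 2.39%, 3.45%, 4.05% and 7.67%), so no order of sham and TAC is read from it.

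*Csf2* was nearly confined to the lymphoid gates, with 408 of its 620 reads in the ILC2 gate and 173 in the T cell gate. All 20 cells of the ILC2 gate with a *Csf2* read had *Gata3* and came from the sham groups, 9 from WT sham and 11 from CD3e-/- sham. The level in the gate was 64.5 CPM in WT sham, 94.2 CPM in CD3e-/- sham and 0 in all 3 TAC groups. At the thinned depth 18 of 69 cells of the sham groups had a read (26.1%, 16.3% to 38.1%) and 0 of 33 cells of the TAC groups, which allows a share of up to 9.09%. Only 9 of those 33 TAC cells had *Gata3*, and 0 of 9 allows a share of up to 33.3%. A loss per cell after TAC was thus not detectable with so few cells.

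The ILC2 gate itself held 3.90%, 3.59%, 1.05%, 0.762% and 1.01% of the kept cells. Over all kept cells *Csf2* was at 2.46, 2.54, 0.604, 0.0367 and 0.193 CPM, and in such sums fewer cells of a type and less RNA per cell cannot be told apart. In the T cell gate 9 of 118 cells had a *Csf2* read and 1 of them gave 56.6% of the reads. In monocytes and macrophages 3 of 3408 cells had one at the thinned depth (0.0880%, 0.0182% to 0.257%), and no B cell had one.

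**Figure D2:**
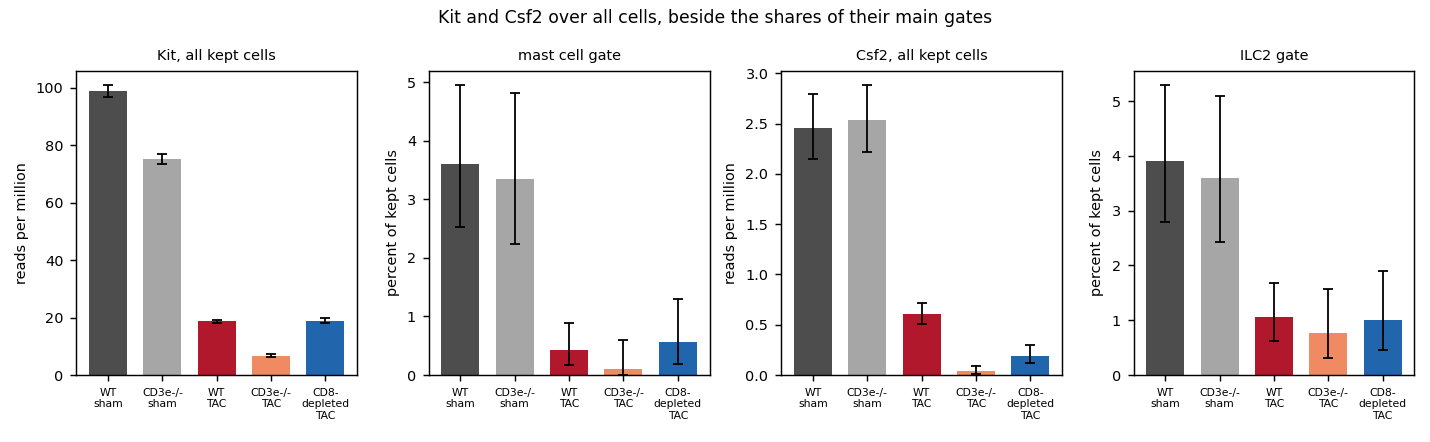
*Kit* and *Csf2* in CPM over all kept cells of each group, beside the share of kept cells in the mast cell gate and the ILC2 gate in percent, with 95% intervals for counting error as bars. *Kit* runs from 98.8 CPM in WT sham to 6.71 CPM in CD3e-/- TAC while the mast cell gate runs from 3.60% to 0.109%, and *Csf2* is at 2.46 and 2.54 CPM in the sham groups and at most 0.604 CPM after TAC.

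*Csf1r* was read in nearly every monocyte and macrophage, 99.3% of the cells, against 35.2% of B cells with 61.8 CPM. *Lyve1* macrophages and Ccr2-low Lyve1-low macrophages stood above both monocyte classes. The level was 2257 CPM in *Lyve1* macrophages, 1768 in Ccr2-low Lyve1-low macrophages, 1235 in Ccr2 cells, 1215 in Ly6c-low monocytes and 980 in Ly6c-high monocytes. Ccr2 cells and Ly6c-low monocytes overlapped across the groups, with 1071 to 1448 and 1062 to 1331 CPM. Below them came cDC2 with 385 CPM, cDC1 with 125 CPM and mast cells with 36.1 CPM. The ILC2 gate had 513 CPM, and its cells with *Gata3* had 43.6 CPM without 1 cell that gave 77.3% of their reads.

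In the sum of the monocytes and macrophages *Csf1r* was at 1757, 1360, 1396, 1251 and 1543 CPM. WT sham was highest and CD3e-/- TAC lowest, and no comparison reached 1.5-fold. The log2 ratio of WT TAC to WT sham was -0.33 and that of CD3e-/- TAC to CD3e-/- sham -0.12. Ccr2-low Lyve1-low macrophages had 2181, 1641, 1650, 1508 and 2035 CPM. Thus WT sham and the TAC group labelled CD8-depleted stood above the other 3 in this class. In Ccr2 cells *Csf1r* was slightly higher after TAC in both genotypes (log2 ratios 0.12 and 0.13).

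*Csf2ra*, the ligand-binding chain for GM-CSF, was spread evenly over both monocyte classes, cDC2 and Ccr2 cells, with less in cDC1. Ly6c-low monocytes had 343 CPM, Ly6c-high monocytes 328, cDC2 325 and Ccr2 cells 323, and these 4 did not differ beyond the spread over groups. Ccr2-low Lyve1-low macrophages had 237 CPM, cDC1 190 and *Lyve1* macrophages 175, against 58.2 CPM in B cells and 27.2 in mast cells. In mast cells 15.6% of the cells had a read (8.32% to 25.6%) and in B cells 19.4% (15.8% to 23.3%), so the mast cell share is at background. The sums of the monocytes and macrophages were 316, 335, 288, 269 and 270 CPM. All 3 TAC groups lay below both sham groups, by less than 1.5-fold, an order for which no share over all genes is given. The share of cells with a read went the other way (72.5%, 75.3%, 78.0%, 80.4% and 77.5%), so no order of sham and TAC is read from it. TAC was below sham in 8 of 11 classes in WT and in 8 of 9 in CD3e-/-. Of all genes with values in as many classes, 10.9% and 3.9% were lower in as many. The ILC2 and T cell gates and unassigned cells were also left out, a choice made after the data were seen. *Csf2ra* was then lower in 8 of 8 classes in WT and 7 of 8 in CD3e-/-, beside 1.1% and 5.72% of genes.

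*Csf2rb*, the shared signalling chain, was highest in mast cells with 392 CPM (377 to 408) and a read in 83.1% of the cells, against 11.9% and 23.9 CPM in B cells. Ly6c-high monocytes had 376 CPM (371 to 380), Ly6c-low monocytes 346 and cDC2 280. Mast cells and Ly6c-high monocytes overlapped across groups. The level was 209 CPM in Ccr2 cells, 174 in Ccr2-low Lyve1-low macrophages, 140 in cDC1 and 91.4 in *Lyve1* macrophages, so monocytes stood above macrophages, the reverse of *Csf1r*. *Csf2rb2* had a like order at lower counts, with 142 CPM in mast cells, 93.2 in Ly6c-high monocytes, 37.0 in *Lyve1* macrophages and 6.39 in B cells.

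**Figure D3:**
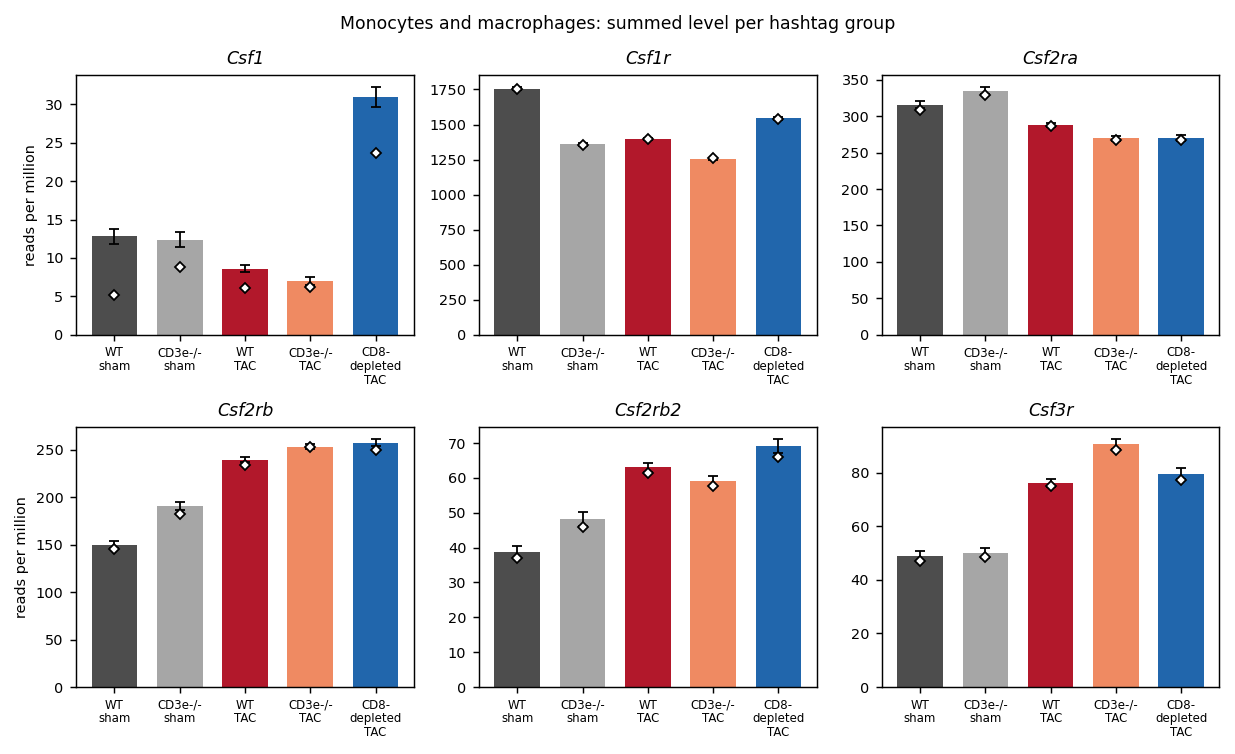
CPM of 6 genes in the summed monocytes and macrophages of each group, with exact Poisson 95% intervals as bars for counting error only and an open diamond for the level without the cell with the most reads. *Csf2rb*, *Csf2rb2* and *Csf3r* lie higher in the 3 TAC groups than in both sham groups, an order for which no share over all genes is given. *Csf1* stands out at 31.0 CPM in the TAC group labelled CD8-depleted.

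In the sums of the monocytes and macrophages *Csf2rb* was at 150, 191, 240, 254 and 258 CPM. The 3 TAC groups did not overlap with the sham groups. *Csf2rb2* was at 38.7, 48.2, 63.0, 59.1 and 69.2 CPM and *Csf3r* at 49.0, 50.1, 76.2, 90.7 and 79.6 CPM, again with every TAC group above both sham groups. The share of all genes with this order of groups is not given here, so the order is a description only, here and by class. WT TAC against WT sham gave log2 ratios of 0.66 for *Csf2rb*, 0.64 for *Csf2rb2* and 0.59 for *Csf3r*. These 3 of the 6 genes tested passed 1.5-fold, at 1.58-, 1.56- and 1.505-fold, beside 7.99% of all 9226 genes with at least 10 CPM in either group. The median log2 ratio of the 6 genes was 0.23 and that of all genes tested 0.03.

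CD3e-/- TAC against CD3e-/- sham gave 0.40 for *Csf2rb*, 0.27 for *Csf2rb2* and 0.80 for *Csf3r*. In this pair only *Csf3r* of the 6 genes passed 1.5-fold, beside 10.5% of all genes, and the median of the 6 was 0.07 against 0.05 over all genes. Under the 9 alternatives the log2 ratio of *Csf3r* in this pair ran from 0.46 to 0.93 and stayed past 1.5-fold in 8. Reads of early response genes, which are known to rise when tissue is digested, were higher in sham cells, with *Fos* at 4689, 4182, 2658, 2342 and 2665 CPM, and their part in the differences between sham and TAC was not tested. The depth per cell also differed, with medians of 73899.5, 80512, 97070, 126976 and 103204 reads in monocytes and macrophages.

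The class makeup moved with TAC too, since Ly6c-high monocytes were 1.80%, 3.11%, 8.36%, 15.3% and 14.5% of the kept cells. With the same class makeup in every group, the log2 ratios of WT TAC to WT sham were 0.47 for *Csf2rb*, 0.55 for *Csf2rb2* and 0.27 for *Csf3r*, and 0 of 6 genes passed 1.5-fold. By class, *Csf2rb* was higher after TAC in 9 of 11 classes in WT and in 7 of 9 in CD3e-/-, and of all genes with values in as many classes 11.3% and 20.9% were higher in as many. Leaving out the ILC2 and T cell gates and unassigned cells, a choice made after the data were seen, it was higher in 6 of 8 classes in each genotype, beside 25.6% and 26.4% of genes. cDC2 had 190, 216, 328, 344 and 330 CPM of it, Ccr2 cells 153, 166, 216, 247 and 215 CPM and Ccr2-low Lyve1-low macrophages 124, 208, 184, 188 and 154 CPM. In cDC2 and Ccr2 cells every TAC group stood above both sham groups, but in Ccr2-low Lyve1-low macrophages CD3e-/- sham was highest. *Csf2rb2* was higher after TAC in 10 of 10 classes in WT, beside 1.18% of genes, and in 5 of 9 in CD3e-/-, beside 59.9%. With the same classes left out, *Csf2rb2* was higher in 7 of 7 in WT, beside 4.07%, and in 4 of 8 in CD3e-/-, beside 68.7%.

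*Csf3r* separated granulocytes from all other cells, with 2699 CPM and a read in 9 of 9 cells of the granulocyte gate and 3836 CPM (3727 to 3946) in 27 of 27 unassigned cells with *S100a8*. None of these 27 came from WT sham, and they numbered 4, 6, 7 and 10 in the other groups. Ly6c-high monocytes had 123 CPM and Ly6c-low monocytes 119, which overlapped across groups. Ccr2 cells followed with 62.4 CPM, Ccr2-low Lyve1-low macrophages with 58.7 and *Lyve1* macrophages with 27.5, against 7.57 in B cells. The classes did not move alike after TAC. Ccr2 cells had 36.7, 34.0, 65.4, 78.5 and 75.8 CPM of *Csf3r* and Ccr2-low Lyve1-low macrophages 42.9, 32.0, 68.2, 69.2 and 64.4 CPM, with every TAC group above both sham groups in both classes. Ly6c-high monocytes had 169, 161, 107, 136 and 110 CPM, lower in every TAC group, with a read in 9 of 18, 18 of 26, 66 of 135, 88 of 141 and 66 of 130 cells. In monocytes and macrophages the share of cells with a read was 24.3%, 28.4%, 40.6%, 46.3% and 37.8%, against 9.47% in B cells. These shares pool classes whose makeup differed between groups, and genes per cell at the thinned depth differed too. The part of either was not tested, so no change per cell is read from these shares.

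**Figure D4:**
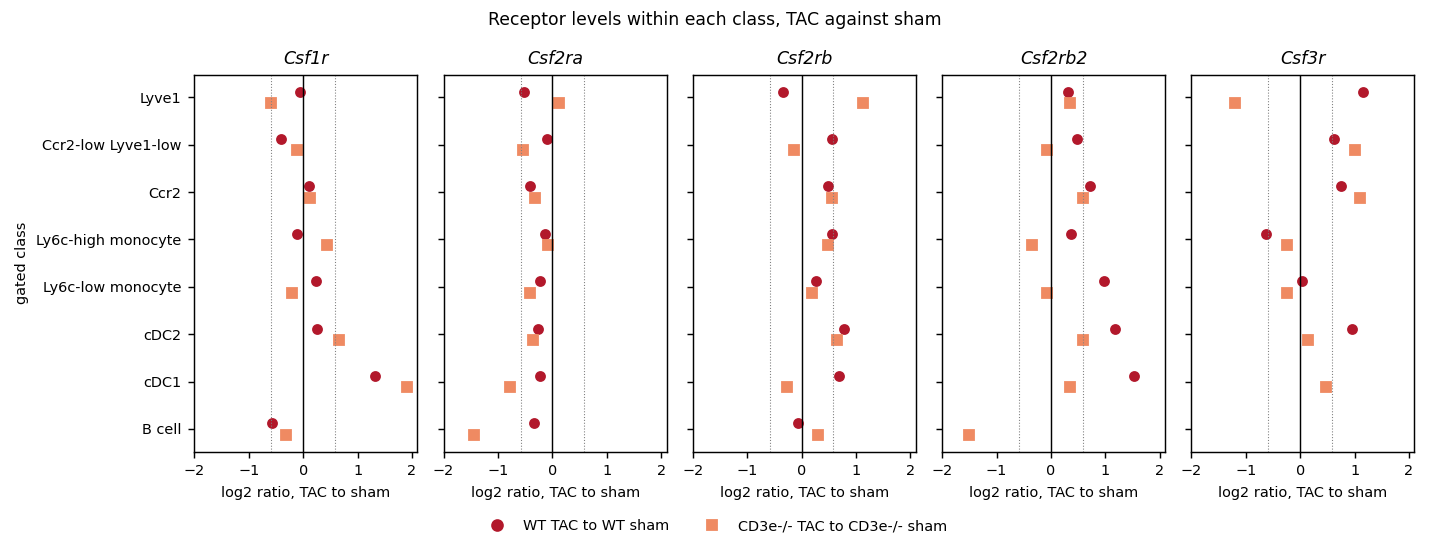
Log2 ratio of TAC to sham for 5 receptor genes in 8 gated classes, with WT as circles, CD3e-/- as squares and dotted lines at 1.5-fold in either direction. *Csf2rb* lies above 0 in most classes of both genotypes, *Csf2ra* mostly below 0, and *Csf3r* above 0 in Ccr2 cells (0.75 and 1.10) and below 0 in Ly6c-high monocytes (-0.63 and -0.24).

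The GM-CSF receptor needs both chains in 1 cell. Reads of *Csf2ra* and *Csf2rb* together were found in 71.3% of Ly6c-high monocytes (66.9% to 75.5%), 68.4% of cDC2, 67.6% of Ly6c-low monocytes, 54.9% of cDC1 and 51.4% of Ccr2 cells. The share was 33.9% in Ccr2-low Lyve1-low macrophages and 24.3% in *Lyve1* macrophages (18.5% to 30.8%), against 3.30% in B cells (1.86% to 5.39%). Mast cells were the exception among cells rich in *Csf2rb*, with both chains in 14.3% (7.35% to 24.1%). Instead they had *Il3ra* at 106 CPM and *Il5ra* at 62.0 CPM, the specific chains that use the beta chain for IL-3 and IL-5. In monocytes and macrophages both chains were read in 31.2%, 38.4%, 49.5%, 58.9% and 50.4% of the cells. Genes per cell at the thinned depth ran in the same order of groups, and their part in these shares was not tested.

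The other 3 comparisons of monocytes and macrophages moved these genes little. CD3e-/- sham against WT sham passed 1.5-fold for 0 of 6 genes, beside 5.78% of all genes, with log2 ratios from -0.37 for *Csf1r* to 0.34 for *Csf2rb*. CD3e-/- TAC against WT TAC passed it for 0 of 5 genes, beside 2.23% of all genes, with ratios from -0.16 for *Csf1r* to 0.24 for *Csf3r*. The TAC group labelled CD8-depleted against WT TAC passed it for 1 of 6 genes, *Csf1* as above, beside 1.44% of all genes, and the 5 receptor genes lay between -0.09 and 0.14. Several of the 5 comparisons share the cells of WT TAC, CD3e-/- TAC or a sham group and are not independent of each other.

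*Flt3* was a gene of dendritic cells, with 319 CPM (313 to 325) in cDC1 and a read in 137 of 153 cells (89.5%, 83.6% to 93.9%). cDC2 had 112 CPM and a read in 198 of 393 cells (50.4%, 45.3% to 55.4%). Monocytes and macrophages had 5.15 CPM with a read in 3.93% of the cells, against 0.806 CPM in NK cells and 0.751 CPM in mast cells, where 0 of 39 and 1 of 77 cells had a read. Within them Ly6c-high monocytes had 8.22 CPM. B cells had 32.9 CPM, with 4.13 to 55.4 CPM across groups and a read in 5.51% of the cells, so they are no background for this gene. In cDC1 *Flt3* was at 291, 275, 362, 315 and 291 CPM and in cDC2 at 103, 72.5, 135, 125 and 119 CPM. The groups of cDC1 lay within 1.5-fold of each other. In cDC2 every TAC group was above both sham groups, an order for which no share over all genes is given. The 14 cells of the pDC gate had 382 CPM, of which 53.7% came from 1 cell.

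*Kit* marked mast cells, with 2654 CPM (2615 to 2693) and a read in 76 of 77 cells. Its level in the mast cell gate was 2601 CPM in 36 cells of WT sham, 2853 in 28 of CD3e-/- sham, 2538 in 7 of WT TAC, 2250 in 1 of CD3e-/- TAC and 2471 in 5 of the TAC group labelled CD8-depleted. The level per mast cell thus differed by less than 1.5-fold between groups while their number did not. Mast cells were 3.60% (2.53% to 4.95%) and 3.35% (2.24% to 4.81%) of the kept cells in the sham groups. They were 0.433% (0.174% to 0.891%), 0.109% (0.00275% to 0.605%) and 0.559% (0.182% to 1.30%) after TAC. The number of mice and of leukocytes per heart behind these shares was not analysed here, so fewer mast cells and more other cells cannot be told apart.

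Over all kept cells *Kit* was at 98.8, 75.3, 18.7, 6.71 and 18.9 CPM, and without mast cells at 8.98, 12.2, 10.6, 3.76 and 8.64 CPM. cDC1 were the second class with *Kit*, at 98.8 CPM and a read in 72 of 153 cells (47.1%, 38.9% to 55.3%), against 0.441% of B cells and 0.147% of monocytes and macrophages. Their levels were 80.5, 151, 94.4, 69.3 and 101 CPM. Reads of *Kit* and *Flt3* were found together in 68 of the 153 cDC1 (44.4%, 36.4% to 52.7%) and in 12 of 393 cDC2 (3.05%, 1.59% to 5.27%). Of the 64 cells of the ILC2 gate with *Gata3*, 12 had a *Kit* read.

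Of 28 other genes of the pathways, 26 were in the matrix, and they were compared at 1.5-fold in monocytes and macrophages. WT TAC against WT sham passed it for 2 of 23, beside 7.99% of all genes, namely *Stat3*, which carries G-CSF signals (116 to 179 CPM, log2 ratio 0.60), and the STAT5 target *Cish* (16.1 to 8.71 CPM, -0.62). CD3e-/- TAC against CD3e-/- sham passed it for 3 of 23, beside 10.5% of all genes, namely *Stat3* (0.68), *Cish* (-0.75) and the Kit ligand gene *Kitl* (22.2 to 9.12 CPM, -0.95). *Kitl* was also lower in CD3e-/- TAC than in WT TAC (-0.88), the only one of 22, beside 2.23% of all genes. CD3e-/- sham against WT sham and the TAC group labelled CD8-depleted against WT TAC had 0 of 23 and 0 of 22, beside 5.78% and 1.44%. By class, *Kitl* was highest in *Lyve1* macrophages with 63.4 CPM, and *Flt3l*, the ligand of *Flt3*, in NK cells with 125 CPM and the T cell gate with 79.2 CPM. *Il34*, the other ligand of the *Csf1r* receptor, was at 2.25 CPM in unassigned cells and lower elsewhere. *Socs2*, a feedback inhibitor, was highest in mast cells with 350 CPM.

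Over 44 points of a class in a group with at least 20 cells, the genes whose log2 level followed each of the 9 most closely were named from 11669 genes. These points share 1 library and 11 classes, so the correlations follow the classes and are given as a description. *Clec5a* and *Cd302* were among the genes closest to *Csf1r* (r = 0.95 each). *Csf2* was closest to *Cpne7* (0.98), *Ccr8* (0.97) and *Il17rb* (0.96), the last encoding the IL-25 receptor of ILC2. In the ILC2 gate only WT sham with 39 cells and CD3e-/- sham with 30 gave points, so the correlations of *Csf2* rest on few points. *Csf2rb* was closest to *Csf2rb2* (0.88), *Acer3* (0.87) and *Cers6* (0.85), and *Csf2rb2* to *Fam129b* (0.89), *Fes* (0.88) and *Csf2rb*. *Csf2ra* was closest to *Capza2* (0.93), *Ugt1a7c* (0.92) and *Lyz2* (0.92), and *Csf3r* to *Apoc2* (0.95), *Gm44805* (0.94) and *Ms4a4a* (0.92). *Flt3* was closest to *Jaml* (0.87), *Adgra2* (0.87) and *Septin3* (0.86), and *Kit* to *Gpr141b* (0.85), *Esyt3* (0.81) and *Gcsam* (0.80). *Csf1* had no close companion, with *Serpinb9* at 0.69, *Rnf128* at 0.68 and *Atxn1* at 0.68.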

How the data were processed

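The deposited matrix holds raw counts, that is reads per gene and cell barcode without normalization, from 1 pooled library of CD45+ heart cells. The authors trimmed and mapped the reads (cutadapt 2.10, Bowtie2 2.4.2 and GRCm38 per the submitters' processing notes), kept barcodes above an inflection point, corrected errors by the read distribution and marked hashtag doublets. Of 5363 columns, 40 doublets and 8 without a hashtag were left out. Doublets within a hashtag were not looked for, and 67 cells with genes of more than 1 lineage were set aside. Cells with at least 500 genes (each found in at least 5 cells) and a mitochondrial share of at most 0.4 were kept, which left 5263.

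Classes were gated in a fixed order on single-cell CPM: B (*Cd79a* 500), T (*Cd3g* 50), cDC1 (*Xcr1* 50), cDC2 (*Cd209a* 200), then, with *Lyz2* of at least 1500, granulocytes (*S100a8* 5000), Ly6c-low (*Ace* 50) and Ly6c-high monocytes (*Ly6c2* 500), *Lyve1* (100), Ccr2 (*Ccr2* 1000) and the rest, and below it pDC (*Siglech* 100), mast cells (*Cpa3* 100), NK (*Ncr1* 50) and ILC2 (*Il1rl1* 50). Counts were summed per class and group and divided by all reads. Genes with at least 10 CPM in either group were compared by log2 ratios with 5 CPM added, and 1.5-fold was the limit. The members and lists were chosen with earlier results of these data known. The genes named were the 9 members, the listed pathway genes, gate and marker genes, and the 3 genes most correlated with each member, of which 1 is not reported here. Alternatives were another pseudocount, filter, limit, scaling, averaging, class makeup, gate cuts and no cell filter. Those without the cell with the most reads, with *Gata3* in the ILC2 gate and with the unassigned cells split by markers were added after the data were seen. Each group was 1 sample, so nothing was tested, and the depth of 91899777 to 208758777 reads per group sets the counting intervals only. The ratio calls, with changes set in genes of at least 50 CPM, and the Poisson intervals were tested on simulated Poisson counts. Gates and thinning were not part of that test. Python 3.11.15, numpy 2.4.6, scipy 1.17.1, pandas 2.3.3, matplotlib 3.10.9 and biotite 1.4.0 were used. The gene positions are from RefSeq on GRCm38.p6, and the transcripts of *Csf2rb* and *Csf2rb2* from GENCODE vM1 on NCBIM37 without coordinates.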

Additional observations from a re-analysis of the deposited data

How the results depend on the processing

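The count of genes past 1.5-fold in monocytes and macrophages rested on values close to that limit. For WT TAC against WT sham it was 3 of 6 as reported, 0 at a 2-fold limit, 1 with 20 CPM added, 1 with the mean of single-cell CPM and 0 with a fixed class makeup. For CD3e-/- TAC against CD3e-/- sham it was 1 of 6 as reported, 0 at a 2-fold limit, 2 with 1 CPM added and 2 with the mean of single-cell CPM. For CD3e-/- sham against WT sham it was 0 as reported and 1 with the cuts halved and with the cuts doubled. For the TAC group labelled CD8-depleted against WT TAC it was 1 as reported and 0 with a filter at 50 CPM, which *Csf1* does not pass. Of 29 log2 ratios under 9 alternatives each, 244 of 261 values kept their sign, and 19 ratios kept it under all 9. All 5 ratios past 1.5-fold kept their sign under all 9, but only 1 of them stayed past 1.5-fold under all 9. The class with the highest level was kept for 8 of 9 genes with the mean of single-cell CPM, 7 with the cuts doubled and 6 with the unassigned cells split by markers. No paired analysis was possible because each hashtag group was 1 sample. The causes of these changes were not tested. *Csf2*, and *Kit* outside mast cells and cDC1, rest on few cells, and gates on single-cell reads miss cells with low counts of the gate gene.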
